A study of Homo sapiens with 7 samples.

Results

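HSPA1A and HSPA1B are the stress-inducible HSP70 genes, and the list of eIF3a contact sites held 1 read cluster at each. A cluster is a run of overlapping reads on 1 strand. The members were the plus-strand clusters that overlapped HSPA1A (hg19, chromosome 6, 31783290 to 31785719) or HSPA1B (chromosome 6, 31795512 to 31798031). They made up 2 of the 3566 clusters on the primary chromosomes, or 10 of the 4013 deposited entries when copies on alternate versions of chromosome 6 are included. The HSPA1B cluster held 124 reads and the HSPA1A cluster held 8.

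HSP70 proteins are ATP-driven chaperones that bind unfolded stretches of other proteins and help them to fold. HSPA1A and HSPA1B are intronless neighbours in the major histocompatibility complex, encode almost the same protein, and are switched on by the transcription factor HSF1 when cells meet heat or other stress. HSP70 mRNA is a textbook case of an mRNA that goes on being translated when heat shock restrains cap-dependent initiation. eIF3a belongs to eIF3, the multi-subunit initiation factor through which small ribosomal subunits are recruited to mRNAs.

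The contacts were measured by PAR-iCLIP in the established line HEK293T, derived from human embryonic kidney and expressing SV40 large T antigen. In 2 replicates 4-thiouridine (100 mM, as the labels state it) was given for 8 h, the cells were exposed to 354 nm light, and the RNA joined to eIF3a was recovered with an antibody against that protein. The labels name no heat shock for these samples, and the series describes neither a library without 4-thiouridine nor one without the antibody. The other 5 samples of the series, m6A libraries of heat-shocked HEK293T and of heat-shocked and control HepG2, were not analysed here. The eIF3a data are 1 list in which reads carry no replicate number, and whether both replicates contributed is unknown, so no value has a replicate error and no groups were compared.

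The start of each gene shows how much and how little the copies differ. RefSeq (GRCh38.p14) gave a window of 300 bases for both genes, 250 before the annotated start and 50 from it. The first 30 transcribed bases are shown because the listed HSPA1B interval begins at the 5′ end of the gene, and capitals mark the longest run that both genes share within their first 50 bases. They lie on the plus strand at chr6:31815543-31815572 for HSPA1A and at chr6:31827738-31827767 for HSPA1B.
HSPA1A: aacggctAGCCTGAGGAGCTGCTGCGAcag
HSPA1B: aaacggccAGCCTGAGGAGCTGCTGCGAgg

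The shared run was 20 nt, shorter than the 25-nt reads. Over the 50 transcribed bases, 42 of 51 aligned positions were identical (82.4%), with 7 mismatches and 2 gap positions. Of the 26 words of 25 nt that can be read from the first 50 bases of HSPA1B, 0 occurred unchanged in the HSPA1A window, and the closest match to HSPA1A had 1 mismatch for 3 of them. A further 4 words matched with 2 mismatches. None of the 26 words of either gene occurred in the window of another gene, on either strand. How many mismatches the authors' alignment allowed is not given in the sources used here. Bases further into the genes were not compared.

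Before the start the copies were closer, with 235 of 251 aligned positions identical (93.6%). Both windows held 1 match to GAANNTTC, the core of the heat shock element that HSF1 binds. It is shown for both genes with the match in capitals, on the plus strand at chr6:31815426-31815455 for HSPA1A and at chr6:31827622-31827651 for HSPA1B.
HSPA1A: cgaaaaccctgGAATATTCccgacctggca
HSPA1B: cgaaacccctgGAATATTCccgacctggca

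The match began 106 bases before the start of HSPA1A and 105 before that of HSPA1B. The same letters, which read alike on both strands, occurred in 6.77% of the 35116 promoter windows of this length. Both genes also had 1 TATAAA, 30 bases before the start of HSPA1A and 29 before that of HSPA1B, against 11.5% of windows with the letters on either strand. Each had 2 matches to CCAAT on the minus strand (34.6% of windows held it on either strand). GGACT, one form of the m6A consensus, had 1 match in HSPA1A, on the minus strand, and 0 in HSPA1B (44.2% of windows). TTTT, a run of the base that 4-thiouridine replaces, had 5 matches in HSPA1A and 2 in HSPA1B over both strands, overlapping matches included (71.4% of windows). On the plus strand, which is that of the RNA, only HSPA1A had matches, beginning at transcribed bases 40 and 41. Both matches in HSPA1B were on the minus strand, beginning 26 bases and 1 base before the start. These are matches of letters within a window and not sites of binding.

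The reads themselves could not be set on these bases. The list is on hg19 and the windows are on GRCh38, and the annotated genes differ in length, 2430 nt in the hg19 interval against 2400 nt in RefSeq for HSPA1A, and 2520 against 2517 nt for HSPA1B. Positions of reads are therefore given as nt from the left end of the hg19 gene interval, which is the 5′ end on the plus strand. Whether a position lies in the untranslated or the coding part was not analysed here.

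HSPA1B carried a long stretch of reads at its 5′ end. The listed interval ran from 31795512 to 31795727, the first 216 nt of the gene (8.57% of its length), and began on the first base of the gene interval. No cluster was listed in the remaining 2304 nt, but the filters behind the list are unknown, so this does not show an absence of contact. The 124 reads had an exact 95% Poisson interval of 103 to 148, and the score, which is the highest coverage in the cluster, was 20. The intervals here cover counting error only, and do so as if any number of reads could share a start. The coverage profile deposited with the cluster was 228 nt long, 12 nt more than the interval. An interval 1 nt shorter than its profile was taken as listed in full, which held for 2093 of the 4013 deposited entries. By that measure 11 nt of the HSPA1B profile went unlisted, at the left end, the right end or both. Positions within the HSPA1B profile are uncertain by that much. If the left end was cut, the reads began before the gene interval.

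The coverage of HSPA1B had no single summit. It was between 7 and 20 reads, with a median of 15, from nt 25 to nt 203 of the profile. The score of 20 was reached in 6 separate stretches that added up to 13 nt. The first was at nt 60 to 61 of the profile and the last at nt 135 to 136, and the longest, at nt 128 to 132, covered 5 nt. If the profile began at the left listed base, the first position at the summit was 59 nt from the left end of the gene; if it ended at the right listed base, allowing the usual 1 nt, the distance was 48 nt. Coverage was 10 reads or more over 185 nt (81.1% of the profile), which is also the part at or above the level of 10 that is 50% of the summit. Each start held 1 read of 25 nt, as given below, so coverage could not pass 25 reads at any base. How far that limit levelled the profile was not tested.

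**Figure D1:**
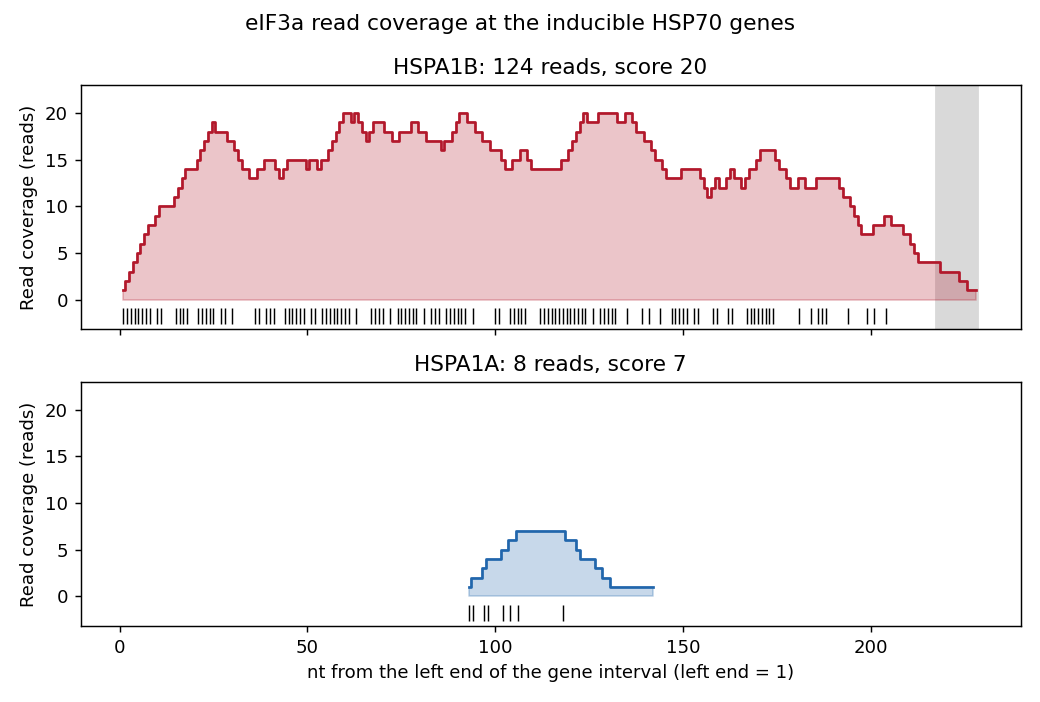
Read coverage (vertical axis, reads) against nt from the left end of the gene interval (horizontal axis), with HSPA1B above and HSPA1A below on the same scales. Black ticks are read starts, and the grey band marks the 11 nt of the HSPA1B profile that would be unlisted if the profile began at the left listed base. HSPA1B has a coverage of 10 or more over 185 nt of its 228-nt profile and a highest coverage of 20, while HSPA1A has 1 small peak of 7 reads.

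Read starts matter in this method because reverse transcription often stops beside the base joined to the protein. The 124 reads of HSPA1B began at 124 different positions, 1 read at each, out of 204 positions where a 25-nt read could begin (60.8%). The longest run of successive starts was 13 nt, at nt 112 to 124 of the profile. The longest step from a start to the next was 7 nt. In windows of 25 nt from the left end, the numbers of starts were 19, 14, 18, 16, 19, 14, 15 and 7, and the last 4 possible positions held 2. The first 7 windows thus held between 14 and 19 starts each, and the eighth held fewer. The median start was at nt 89.5 of the profile.

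**Figure D2:**
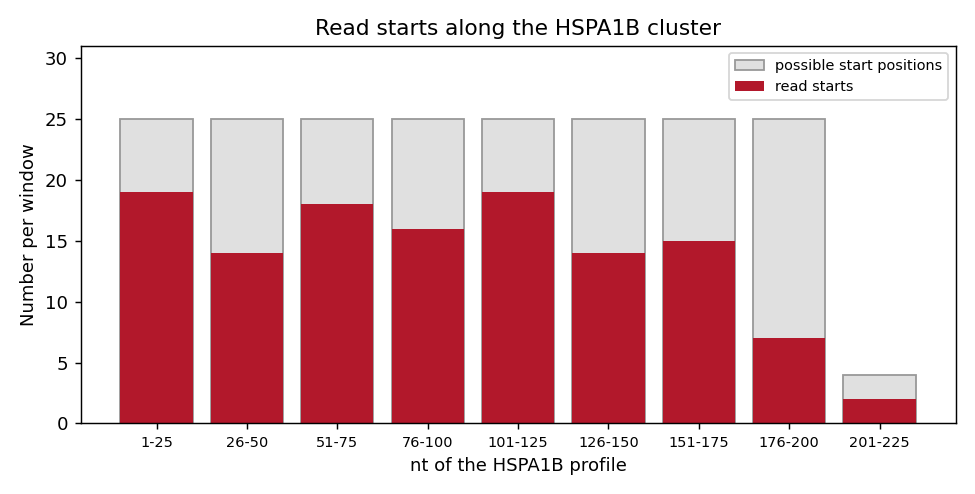
Number of read starts (red bars) and of positions where a 25-nt read could begin (grey bars) in successive windows of the HSPA1B profile, in nt on the horizontal axis. The first 7 windows hold 14 to 19 starts of 25 possible, and the window from 176 to 200 holds 7.

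A start with more than 1 read was rare anywhere in the list. Counting each distinct profile once, 36882 occupied starts held 1 read and 10 held 2 or more. Where each start holds 1 read, as in both genes, the number of reads equals the number of occupied positions. Within a profile of given length it then cannot pass the number of possible positions, 204 in HSPA1B and 26 in HSPA1A. The lengths are themselves set by the outermost reads, so these numbers are not ceilings for the genes. The intervals and the ratio of reads between the genes do not allow for that limit. How duplicate reads were treated is not given in the sources used here.

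HSPA1A had a small cluster that began further from its 5′ end, 12130 nt to the left of the HSPA1B cluster. The listed interval ran from 31783382 to 31783430, nt 93 to 141 of the gene, and covered 2.02% of its length. The 92 nt before it and the 2289 nt after it held no listed cluster, which again does not show an absence of contact. The 8 reads had an exact 95% Poisson interval of 3.45 to 15.8, and the score was 7. Its profile was 50 nt long and its interval 49 nt, so it was listed in full and its positions are uncertain by 1 nt. The reads began at nt 93, 94, 97, 98, 102, 104, 106 and 118 of the gene. All but the last thus lay within 14 nt of each other, and 13 nt were covered by 7 of the 8 reads.

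HSPA1B had 93.9% of the 132 reads at both genes (exact Clopper-Pearson 95% interval 88.4 to 97.3), or 15.5 times the reads of HSPA1A (7.63 to 36.7 from the same interval). By summit coverage, 20 against 7, its share was 74.1%. Within the first 50 transcribed bases no 25-nt word fitted both genes exactly, and further in they were not compared. Both profiles stood in full, with the same reads, on chromosome 6 and on 4 alternate versions of it, so reads of these clusters were entered at each of those places. Whether any read was placed at both genes was not tested, and the ratio describes the listed reads and not the contact of eIF3a with each mRNA. The levels of the mRNAs were not measured here.

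At the same distance from the left end, HSPA1B was also the more covered. Over the 26 positions, nt 93 to 118, where the reads of HSPA1A could begin, HSPA1A had 8 starts. HSPA1B had 15 starts there if its profile began at the left listed base and 21 if it ended at the right one. Its coverage over the 50 nt of the HSPA1A cluster was 14 to 20 reads under the first placing and 13 to 20 under the second, against 1 to 7 in HSPA1A. The ranges did not overlap, but HSPA1A, with 8 reads in all, could not have passed a coverage of 8. The difference thus largely restates the read totals and is not a separate result. The distances are from the annotated left ends in hg19, and the copies were not aligned base by base here. The hg19 interval was longer than the RefSeq gene by 30 nt for HSPA1A and by 3 nt for HSPA1B. Equal distances may therefore not be matching bases.

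Among the 3566 clusters, HSPA1B stood near the top by every measure taken, and HSPA1A nearer the middle. HSPA1B ranked 2 by reads, behind a minus-strand cluster of 172 reads on chromosome 1 (149814266 to 149814318) whose profile was 522 nt long. It ranked 61 by profile length (228 nt, median of all clusters 61 nt). In reads per 100 nt of profile it ranked first, with 54.4 against a median of 10.7. The next were a minus-strand cluster of chromosome 2 (232329065 to 232329205), with 49.7, and a plus-strand cluster of chromosome 9 (91926110 to 91926207), with 46.5. By score it stood lower, since 19 clusters scored above 20 and 18 scored 20, HSPA1B among them. Those 18 held from 28 to 124 reads with a median of 55.5, and HSPA1B had the most.

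**Figure D3:**
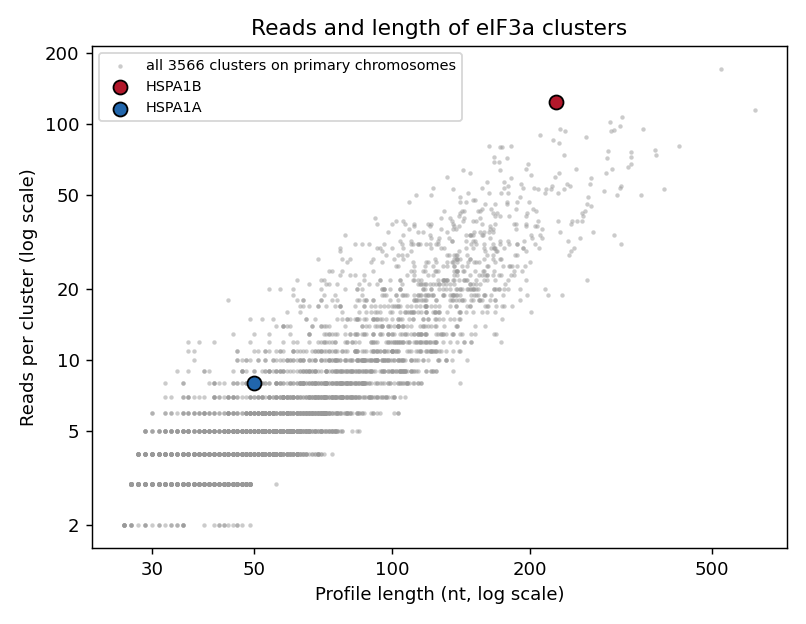
Reads per cluster against profile length in nt, both on log scales, for the 3566 clusters on the primary chromosomes (grey points), with HSPA1B in red and HSPA1A in blue. HSPA1B, with 124 reads in 228 nt, lies at the upper edge of the clusters of its length, and HSPA1A, with 8 reads in 50 nt, lies inside the cloud.

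HSPA1B also ranked high among large clusters in how far its profile was filled. Among the 79 clusters with 50 reads or more, the share of possible start positions that held a read ranged from 14.4% to 60.8% with a median of 33.9%, and the highest was that of HSPA1B. The next was 58.3%, in the same chromosome 2 cluster of 81 reads in 163 nt. Because nearly every occupied start held 1 read, this share is largely reads per nt again and not a separate trait. The part of the profile at 50% of the summit or more was 81.1% in HSPA1B, against a range of 18.3% to 82.0% and a median of 45.0%. Only a cluster of 72 reads on the plus strand of chromosome 3, listed at 23959335 to 23959350, had a higher value. These ranks describe 1 list of clusters, which are not replicates, and no test was made on them.

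**Figure D4:**
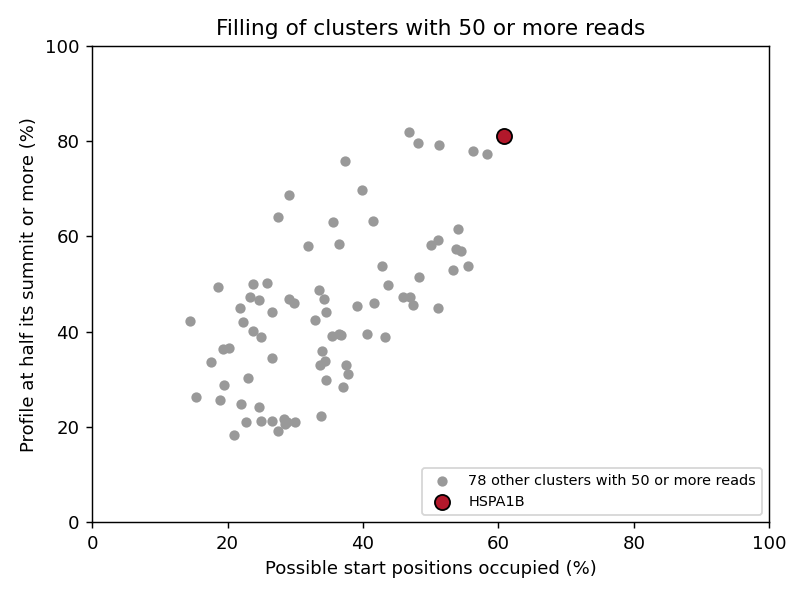
Share of the profile at 50% of its summit or more (vertical axis, percent) against the share of possible start positions that held a read (horizontal axis, percent) for the 79 clusters with 50 reads or more. HSPA1B (red), at 60.8% and 81.1%, lies at the right edge, beyond the 78 other clusters (grey) in occupied starts.

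The clusters most like that of HSPA1B were found by their distance in log2 reads, log2 length and log2 score, each divided by its SD over the primary clusters. The closest, at 0.413, was a plus-strand cluster of chromosome 12 (56510386 to 56510571), whose 239 nt held 94 reads with a score of 22. The next, at 0.468, was a plus-strand cluster of chromosome X (153626666 to 153626860), whose 225 nt held 86 reads with a score of 20. A plus-strand cluster of chromosome 22 (24236565 to 24236661) followed at 0.495, with 96 reads over 233 nt and a score of 24. Chromosome 14 had the fourth at 0.521, a minus-strand cluster (21702353 to 21702388) of 88 reads over 265 nt. The fifth, at 0.567, was a minus-strand cluster of chromosome 6 (27100530 to 27100575) with 102 reads over 299 nt. In these 5, from 36.5% to 45.9% of possible starts were occupied, all below the 60.8% of HSPA1B.

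HSPA1A was an ordinary cluster in size and a compact one in shape. Its 8 reads were reached or passed by 1509 of the 3566 clusters (42.3%), where the median was 6. Its score of 7 was reached or passed by 28.0%, and its 16.0 reads per 100 nt by 18.9%. Of the 191 clusters that also held 8 reads, itself included, 47 (24.6%) scored 7 or more and 25 (13.1%) had a profile of 50 nt or less. Their median score was 5 and their median profile 72 nt.

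No other cluster was listed near the pair. Within 100000 nt of either gene the list held 0 clusters other than the pair. To the left the nearest was 543511 nt from the HSPA1A cluster, at 31239849 to 31239870 on the minus strand, with 4 reads. To the right the nearest was 1461820 nt from the HSPA1B cluster, at 33257548 to 33257633 on the plus strand, with 11 reads. HSPA1L, the testis-enriched HSP70 gene that runs away from HSPA1A on the other strand and lies next to it in the RefSeq order of genes, had no listed cluster, since the minus strand had 0 entries from 10000 nt left of HSPA1A to 10000 nt right of HSPA1B. The filters behind the list are unknown, so a missing cluster does not show an absence of contact. HSPA1B accounted for 4.33% of the 2865 reads in the 214 clusters of chromosome 6.

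The profiles of both genes recurred only on alternate versions of chromosome 6. hg19 carries several assembled versions of the major histocompatibility complex, and 7 of them had entries in the list. Of these, 4 (apd, cox, dbb and qbl) held both profiles with the same 8 and 124 reads and the same scores of 7 and 20, and the other 3 (mann, mcf and ssto) held neither. Each profile was therefore listed at 5 places and is counted once here. The left ends of the pair were 12130 nt apart on chromosome 6 and on dbb, 12132 on cox, 12133 on apd and 12134 on qbl. On no other primary chromosome did either profile occur. The HSPA1B interval was 216 nt on each of the 5 sequences, so the copies do not show at which end the 11 nt are missing.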

How the data were processed

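The series holds 7 samples, of which the 2 eIF3a PAR-iCLIP samples were used; groups came from the titles. Reads were aligned to hg19 with Bowtie, per the submitters' processing notes. How clusters were called and filtered, and how duplicates and reads fitting several places were handled in the alignment, is not given in the sources used here. No header comes with the deposited list. The signal that the authors deposited is the highest coverage of a cluster by aligned reads, in whole reads without normalization (read from the values), beside its coverage profile. The depth of the libraries is unknown; 38419 reads lie in primary clusters.

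Entries of 1 profile at 1 place were counted as 1 cluster. Profiles were split into 25-nt reads; all 3113 split exactly at 25 nt and 0 at 24 or 26 nt. The splitting was tested on simulated reads of 25 nt, recovering 3566 of 3566 profiles. That checks the code only, since reads of other lengths were not simulated. Coordinates count from 1, with the list read as 0-based. The named items were both genes, every cluster within 100000 nt and the 5 clusters nearest in log2 reads, length and score; others (runners-up in ranks, the nearest neighbours beyond that distance) were picked once their values had been seen. The members, lists and settings were chosen with earlier results of these data known. No test was made. A list of other heat shock genes was not placed, because no hg19 annotation was used. Python 3.11.15, numpy 2.4.6, scipy 1.17.1, Biopython 1.88 and matplotlib 3.10.9 were used.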

Additional observations from a re-analysis of the deposited data

How the results depend on the processing

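Each gene had 1 cluster when entries were taken as deposited or had to lie wholly inside the gene, and 5 when alternate sequences were counted. With the area under the profile divided by 26 or 24 nt, reads were 119 or 129 for HSPA1B and 7.69 or 8.33 for HSPA1A. Those changes follow from the lengths alone, and 0 profiles split exactly at either length. Occupied starts gave the same 124 and 8, as each held 1 read. The HSPA1B share of 93.9% was 74.1% by summit coverage. It was unchanged with occupied starts or alternate sequences counted. Those 2 settings could not have moved it, since each occupied start held 1 read and each gene stood at 5 places. The HSPA1B rank of 2 by reads held with distinct profiles counted once and with overlapping clusters merged. It was 20 by summit coverage and 1 by reads per nt. The distance of its summit, 59 nt, was 58 nt with the list read as 1-based, 88.5 nt for the median read start, and, in alternatives added after seeing the data, 48 nt with the right end of the profile fixed and 135 nt for the last position at the summit. No paired analysis was possible because the only list carries no replicate label. The 8 reads of HSPA1A and the unknown library depth limit what can be said of that gene.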
